A study of Mus musculus with 16 samples.

Results

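The comparison described here is that of DNase-seq in late against early wild-type (WT) Th2 cells, which takes 4 of the 16 libraries of the series: late WT replicates 1 and 2 and early WT replicates 1 and 2, chosen by their titles. All cells came from mice on the C57BL/6 background with both Bcl11b alleles floxed and a CreERT2 recombinase, which 4-hydroxytamoxifen (4-OHT) switches on. Late WT cells were grown under Th2 conditions for 4 days, rested for 1 day in medium with IL-2 and grown under Th2 conditions for another 4 days, and early WT cells had the first 4 days alone. Both groups were grown without 4-OHT, so they carry the floxed alleles and the recombinase and are labelled as keeping Bcl11b, which was not checked here. For comparison there were 2 late KO and 2 early KO DNase libraries, in which 4-OHT was present during the last 4 days of culture, so that deletion and exposure to 4-OHT cannot be told apart, and 2 late WT and 2 early WT libraries of acetylated histone H3 lysine 27 (H3K27ac). The labels name the isolated cells as naive CD4 T cells but list the sorted phenotype as CD4+CD44high, and CD44 rises on activation. Whether the replicates are separate cultures or animals is not stated, so p-values speak only for the spread among these libraries, and that spread may be technical. What was deposited for each library is its called islands (stretches enriched in reads, build mm9), with no read counts, and the depth behind each list is unknown.

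DNase I cuts DNA where nucleosomes have been moved aside, so its cut sites mark promoters, enhancers and other elements that regulatory proteins have opened. During Th2 differentiation the transcription factors STAT6 and GATA3 act on such elements, first in cells that have just left the naive state, and repeated stimulation is known to fix the pattern of cytokine genes that a helper cell can express. H3K27ac marks promoters and enhancers that are active, and an open element may carry it or lack it. No annotation of build mm9 was used here, so elements are named by position and no island is tied to a gene. The labelled cell type was therefore not checked against its marker genes.

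The 4 WT DNase lists differed in length, within as well as between the stages. Late WT replicates 1 and 2 held 27416 and 36963 islands, and early WT replicates 1 and 2 held 37525 and 39736. The late WT lists covered 44.7 and 52.4 Mb of the genome, and the early WT lists covered 46.3 and 66.8 Mb. The groups overlapped in covered length, with 48.5 ± 5.4 Mb in late WT and 56.6 ± 14.5 Mb in early WT (SD, n = 2 per group, p = 0.667 in an exact permutation test, two-sided, which cannot go below 0.333 in this design). Median island width was 1400 and 1200 bp in late WT and 1000 and 1400 bp in early WT. The stages therefore do not separate by how wide their islands were, and a longer list alone can give a region that seems to close or open. For this reason each count below is given for whole lists and for lists cut by score to the 27416 islands of the shortest.

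A late and an early library shared on average a somewhat smaller part of their open windows than replicates of one stage did. Taking the 200-bp windows that at least 1 of 2 whole lists covered, 49.7% on average were shared between a late and an early WT library (range of the 4 pairs 46.2% to 52.3%). Late WT replicates shared 52.6% and early WT replicates 53.9%. With equal lists the values were 52.0% between stages (50.7% to 53.4%), 56.1% between late replicates and 56.1% between early replicates. In whole lists the late WT replicates thus shared hardly more windows than early WT replicate 1 and late WT replicate 2 did (52.3%), and in equal lists both pairs of replicates lay above all 4 pairs across stages.

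Islands of the 4 WT lists that overlapped or touched were merged into regions. A region counted as open in late WT alone if both late and neither early list had an island in it, and the reverse for early WT alone. In whole lists 978 of 44502 regions were open in late WT alone (2.2%) and 4042 in early WT alone (9.08%), while 23638 (53.1%) were open in all 4. With lists of equal length 1969 of 32974 regions were open in late WT alone (5.97%) and 1960 in early WT alone (5.94%), and 20400 (61.9%) in all 4. The surplus of regions lost with time in whole lists was thus not present in lists of equal length. Pairs of 1 late and 1 early library also held regions that the other lists lacked. In whole lists these numbered 29, 80, 495 and 1371. The largest, of early WT replicate 2 and late WT replicate 2, lay above the late-alone count. At equal length such pairs held 187 to 300 regions, below both single-stage counts. With lists cut to the same covered length, 44.7 Mb, there were 1497 regions in late WT alone and 667 in early WT alone. No test can be passed by presence in 2 lists against 2, and a net gain or loss of open chromatin with the second culture could not be read from these lists.

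**Figure D1:**
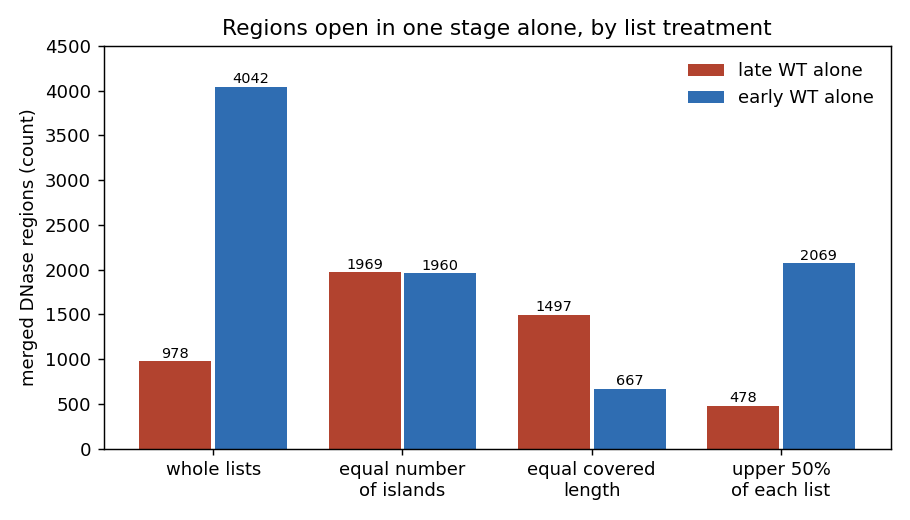
Merged DNase regions (count, y axis) with an island in both libraries of one stage and in neither of the other, for 4 treatments of the lists (x axis), with late WT alone in red and early WT alone in blue. Whole lists gave 978 and 4042 regions, lists of 27416 islands each gave 1969 and 1960, and lists of equal covered length gave 1497 and 667.

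The cut by score keeps strong islands and drops weak ones, so a region found in late WT alone at equal length could still hold a weak early island. Of the 1969 regions open in late WT alone at equal length, 622 (31.6%) had no island in either whole early list and 740 (37.6%) had one in both. Of the 1960 regions open in early WT alone, 806 (41.1%) had no island in either whole late list, and 1154 (58.9%) had one in late WT replicate 2 below the cut. The list of late WT replicate 1 was the shortest and was not cut. The 622 and 806 regions that met both definitions made up 63.6% of the late-alone and 19.9% of the early-alone regions of whole lists.

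Regions open in one stage alone were short and of modest score. Median width was 1200 bp for late-alone and 1200 bp for early-alone regions in whole lists, against 2200 bp for regions open in all 4. At equal length it was 1200 bp for late-alone and 1400 bp for early-alone regions. The island score of the caller, which is the authors' value, was read as a percentile within its own list. The median late-alone region of whole lists stood at percentile 24.0 and the median early-alone region at 20.6, whereas regions open in all 4 stood at 63.8. At equal length the same medians were 31.4, 41.8 and 69.0, still as percentiles of the whole lists. The cut took the low percentiles from every list but that of late WT replicate 1. The late-alone and early-alone medians at equal length therefore cannot be compared with each other. The elements that changed with time were thus mostly drawn from the weaker part of each list.

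The distance to chromatin open in all 4 lists was much the same for late-alone regions as for regions of mixed pattern, and longer for early-alone regions. At equal length the median distance to the nearest region open in all 4 lists was 13.4 kb for late-alone and 18.2 kb for early-alone regions, and 42.0% and 35.4% lay within 10 kb of one. For the 8645 regions that belonged to none of the 3 sets it was 14.0 kb, with 42.1% within 10 kb. In whole lists the distances were 13.0 and 16.0 kb. Few lay next to another region of their own kind, with 16.9% of late-alone and 12.3% of early-alone regions at equal length having such a neighbour within 20 kb. They were found on every chromosome in the lists. On the autosomes late-alone regions made up 42.0% (chromosome 3) to 57.9% (chromosome 16) of the regions open in one stage alone, and on the X chromosome 35.3%, with 18 late-alone and 33 early-alone regions.

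H3K27ac was measured in separate libraries, which had no part in choosing these regions, and it moved the same way. At regions open in late WT alone (whole DNase lists), 59.0% and 66.7% had an H3K27ac island in the late WT libraries, against 26.3% and 26.8% in the early WT libraries. That is 62.8 ± 5.4% in late WT and 26.5 ± 0.4% in early WT (SD, n = 2 per group), and the groups did not overlap. At regions open in early WT alone the late WT libraries had an island in 26.8% and 33.4% and the early WT libraries in 36.1% and 39.2%, or 30.1 ± 4.7% and 37.7 ± 2.2% (SD, n = 2 per group). Over all 44502 regions the shares were 64.1 ± 3.4% in late WT and 59.0 ± 1.6% in early WT. The difference at late-alone regions was 36.3 percentage points and that at early-alone regions was -7.56 points. As 2 libraries against 2 cannot pass an exact permutation test, no test is given.

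The difference in H3K27ac held when all lists were brought to equal length. At the 1969 late-alone regions 65.3% and 65.5% had an island in late WT H3K27ac lists, against 36.7% and 36.3% in early WT lists. At the 1960 early-alone regions the shares were 39.1% and 39.2% in late WT and 50.5% and 51.6% in early WT. Regions open in all 4 DNase lists had 88.8% and 89.0% in late WT and 85.0% and 85.6% in early WT. The loss of acetylation where chromatin closed was smaller than the gain where it opened. At the 622 and 806 regions that met both definitions it was clearer, with 64.1% and 62.9% of late-alone regions acetylated in late WT against 26.5% and 24.8% in early WT, and 31.4% and 30.4% of early-alone regions acetylated in late WT against 51.2% and 51.6% in early WT.

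Many regions changed accessibility without a matching change in acetylation. Of the 978 late-alone regions of whole lists, 289 (29.6%) had an H3K27ac island in both late and neither early library, 204 (20.9%) had one in all 4, and 302 (30.9%) had none in any. Only 8 (0.818%) had it in both early and neither late library. Of the 4042 early-alone regions, 308 (7.62%) had H3K27ac in both early libraries alone, 870 (21.5%) in all 4, 83 (2.05%) in both late libraries alone and 2164 (53.5%) in none. Over all regions 5.79% were acetylated in late WT alone and 2.02% in early WT alone. No H3K27ac island in any WT library was found at 29.1% of all regions.

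**Figure D2:**
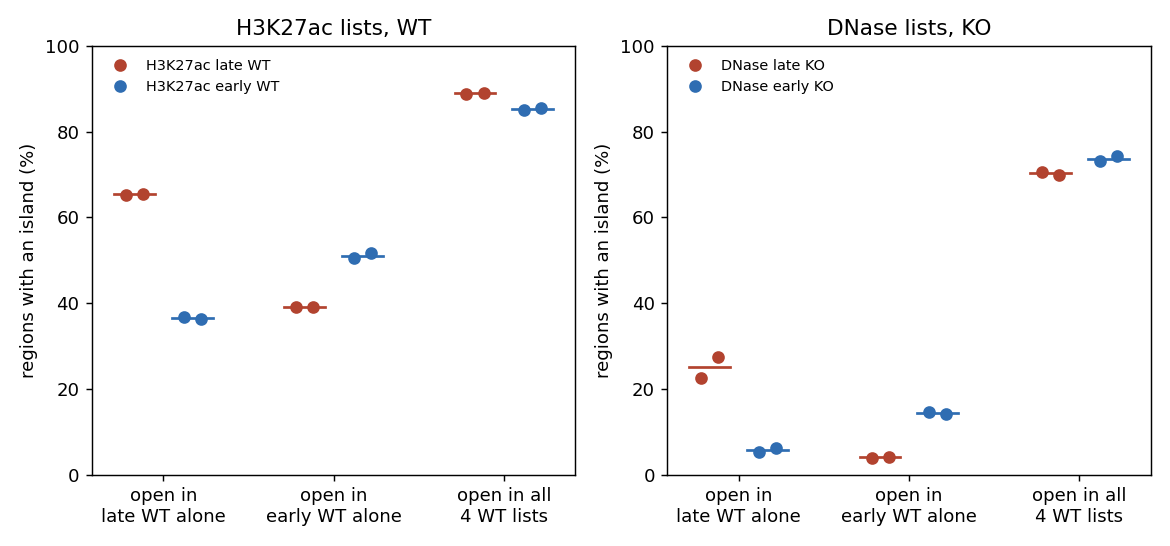
Share of DNase regions (%, y axis) that had an island in libraries not used to choose them, for regions open in late WT alone, in early WT alone and in all 4 WT lists (x axis), with all lists of an assay and genotype cut to equal length. Points are libraries, lines are means of 2, late is red and early is blue. H3K27ac of WT cells (left) was present at 65.3% and 65.5% of late-alone regions in late WT against 36.7% and 36.3% in early WT, and DNase islands of KO cells (right) at 22.6% and 27.5% in late KO against 5.28% and 6.20% in early KO.

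The DNase libraries of KO cells were a second set that had not chosen the regions. Whole KO lists could not be compared directly, because the late KO lists were short, with 18812 and 17397 islands against 24286 and 37956 in early KO. With the 4 KO lists cut to 17397 islands, 17.4% and 21.9% of the late-alone regions of whole WT lists were open in late KO, against 2.45% and 1.94% in early KO. Of the early-alone regions 1.91% and 2.10% were open in late KO and 6.01% and 5.69% in early KO. With WT lists of equal length as well, 22.6% and 27.5% of late-alone regions were open in late KO and 5.28% and 6.20% in early KO, and early-alone regions stood at 3.83% and 4.18% in late KO and 14.6% and 14.0% in early KO. Regions open in all 4 WT lists stood at 70.6% and 69.8% in late KO and 73.2% and 74.3% in early KO. All 32974 regions stood at 48.0% and 47.9% in late KO and 48.7% and 49.4% in early KO. Late-alone and early-alone regions were thus open in KO less often than regions at large. The late KO and early KO groups did not overlap for late-alone or early-alone regions, and both sets moved with time as in WT. With whole KO lists late-alone regions of whole WT lists stood at 21.5 ± 0.6% in late KO and 20.4 ± 15.7% in early KO (SD, n = 2 per group), where the early KO libraries differed widely from each other. At late-alone regions of equal WT lists whole KO lists gave the opposite direction, 27.5 ± 0.1% in late KO and 36.7 ± 26.1% in early KO, so the direction there depended on the length of the KO lists.

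H3K27ac of KO cells was read at the same regions from whole lists. At late-alone regions an island lay in 60.0 ± 1.8% in late KO and in 40.3 ± 4.5% in early KO (SD, n = 2 per group), where early WT cells had 26.5 ± 0.4%. Early KO cells also had more over all 44502 regions, with 66.5% and 63.1% in early KO against 57.9% and 60.1% in early WT, and at early-alone regions, with 43.0 ± 3.0% in early KO and 37.7 ± 2.2% in early WT. The first early KO list held 32112 H3K27ac islands and the first early WT list 26548, while the second lists held 28126 in early KO and 28410 in early WT. The part of list length in this was not tested.

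The strongest regions open in late WT alone were small elements, all of which were acetylated in late cells, as were most DNase regions of any kind. By rule, the 10 with the highest mean score percentile in lists of equal length were taken, and their values below are from whole lists. The first, on chromosome 7 at 121760201 to 121761200, was covered over 1000 and 1000 bp in late WT and over 0 and 400 bp in early WT. Its islands stood at percentiles 84.1 and 89.2 of the late WT lists, and the early WT replicate 2 island at percentile 5.03. H3K27ac covered all 1000 bp in both late WT libraries and none of it in either early WT library. In KO cells DNase islands covered 1000 and 1000 bp in late KO and 0 and 800 bp in early KO.

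Further regions of this kind had no H3K27ac in early WT and full coverage in late WT. On chromosome 15 at 98573601 to 98575000, DNase islands covered 1400 and 1000 bp in late WT and 600 and 400 bp in early WT, and H3K27ac 1400 and 1400 bp in late WT and 0 and 0 bp in early WT. A pair of elements lay near each other on chromosome 11. The one at 90373201 to 90374600 had 1000 and 1400 bp open in late WT and 0 and 800 bp in early WT. The one at 90436801 to 90439400 had 2400 and 2400 bp open in late WT and no island in either early WT library. Both were acetylated over their whole width in late WT and not at all in early WT, while early KO libraries held 1000 to 1400 bp of H3K27ac in each. On chromosome 3 at 130760001 to 130761400, DNase islands covered 1400 and 1000 bp in late WT and 400 and 600 bp in early WT. The H3K27ac there was complete in late WT (1400 and 1400 bp), absent in early WT (0 and 0 bp) and present in early KO (1200 and 1400 bp).

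The region on chromosome 9 at 123742401 to 123746200 was the widest of the 10. It was open over 3600 and 3000 bp in late WT and had no DNase island in early WT. H3K27ac was already present there in early WT cells, over 3200 and 3000 bp, against 3800 and 3800 bp in late WT. In 9 of the 10 regions DNase islands covered more bp in both late than in both early libraries, which the choice of the regions nearly fixes. H3K27ac covered more bp in both late than in both early WT libraries in 8 cases, and all 10 were fully covered in both late WT libraries. In late WT an H3K27ac island also lay in 73.8% and 78.2% of all 32974 regions. Among regions open in all 4 lists it was 88.9% and 91.6%, so acetylation in late cells was not particular to these 10. In KO cells 9 of the 10 had a DNase island in each late library, and 5 and 7 in the early libraries. Whole KO lists, from which these counts come, had one in 51.3% and 47.9% of all 32974 regions in late KO and in 64.0% and 86.3% in early KO. Only 2 of the 10, those on chromosome 9 and on chromosome 11 at 90436801, had no island in either whole early WT list.

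Of the 10 strongest regions open in early WT alone, some lacked acetylation at the late stage, some kept it and some had none at either. On chromosome 1 at 173911801 to 173914000 no island was present in late WT, and 2200 and 2000 bp were covered in early WT. H3K27ac was absent in late WT and filled the 2200 bp in both early WT libraries, and KO cells had 0 and 0 bp of DNase islands in late KO and 2000 and 1800 bp in early KO. The region at 38714401 to 38715600 of the same chromosome was covered over 0 and 1200 bp in late WT and 1200 and 1200 bp in early WT. Its H3K27ac was 0 and 0 bp in late WT and 1200 and 1200 bp in early WT. These sites were open and acetylated in early cells of both genotypes and neither open nor acetylated in late KO cells.

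On chromosome 13 at 36905601 to 36908000, DNase islands covered 0 and 1200 bp in late WT and 1400 and 2400 bp in early WT. H3K27ac there covered 0 and 0 bp in late WT and 2000 and 2000 bp in early WT. The region on chromosome 16 at 93151601 to 93154200 was covered over 0 and 1400 bp in late WT and 1400 and 2600 bp in early WT, with 0 and 0 bp of H3K27ac in late WT and 2000 and 1400 bp in early WT. By contrast the region on chromosome 4 at 62392001 to 62393800 kept H3K27ac over its whole 1800 bp in all 4 WT libraries, while DNase islands covered 0 and 400 bp in late WT and 1000 and 1600 bp in early WT.

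**Figure D3:**
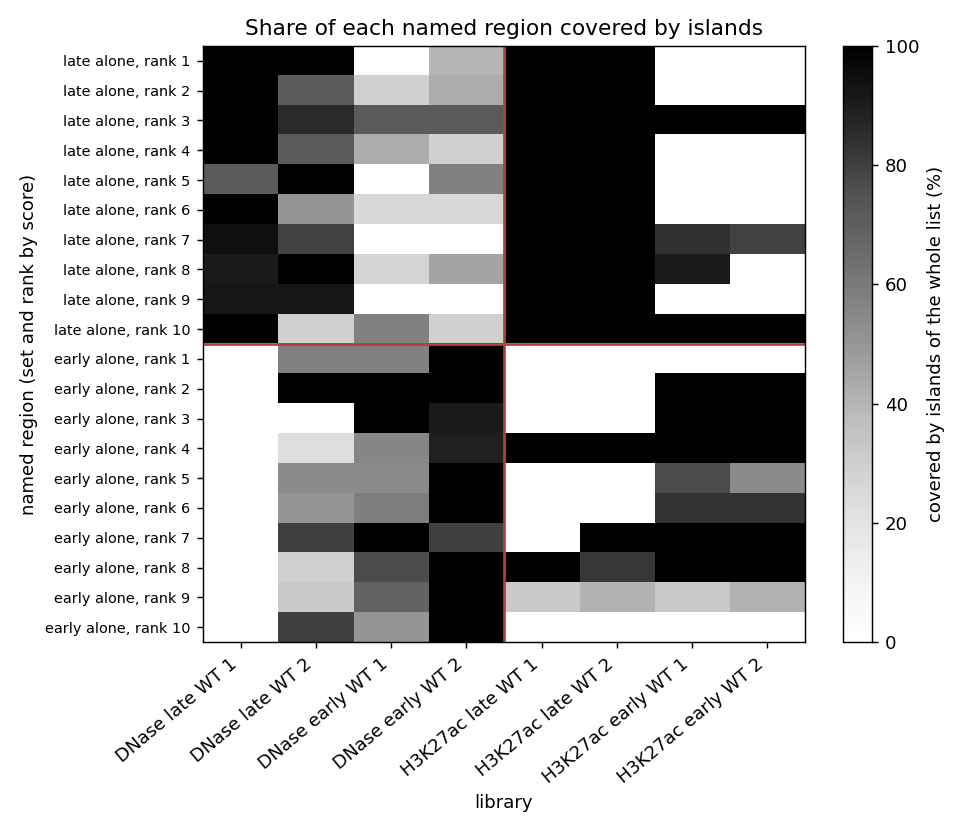
Share of the width of each named region (rows, 10 open in late WT alone above and 10 open in early WT alone below, ranked by score) covered by islands of whole lists (grey scale, %) in 4 DNase and 4 H3K27ac WT libraries (columns, late left of early within each assay). All 10 late-alone regions are fully covered by H3K27ac in both late WT libraries, and early-alone regions are at 0 in the list of late WT replicate 1.

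Among the 10 early-alone regions 8 and 8 had an H3K27ac island in the early WT libraries and 3 and 4 in the late WT libraries. In 4 cases both late were below both early. Over all 32974 regions the H3K27ac shares were 68.8% and 71.1% in early WT and 73.8% and 78.2% in late WT. DNase islands in KO cells were present at all 10 in both early libraries and at 1 in each late library. These counts are from whole KO lists, which were shorter in late KO. In them all 32974 regions stood at 51.3% and 47.9% in late KO and 64.0% and 86.3% in early KO. Late WT replicate 2 held a weak island in 9 of the 10 when its whole list was read, at percentiles between 3.41 and 23.1, and the region on chromosome 1 at 173911801 was the exception. In whole lists the absence of these 9 from late WT thus rests on the short list of replicate 1 alone. DNase islands covered fewer bp in both late than in both early WT libraries in 5 of the 10.

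The extent of regions open at both stages is given as a description, since the order of 2 libraries against 2 in a single region is no test. At equal length 2159 of 20400 regions open in all 4 lists (10.6%) were covered over more bp in both late than in both early libraries, with medians of 2100 bp in late WT and 1200 bp in early WT. In 2615 (12.8%) both late libraries were below both early ones, with medians of 1200 bp in late WT and 2200 bp in early WT. A difference of at least 2 times between all late and all early libraries was seen in 204 (1%) that were wider in late WT and 265 (1.3%) that were narrower. In whole lists the counts were 2543 of 23638 (10.8%) wider and 2936 (12.4%) narrower, with 282 (1.19%) and 307 (1.3%) by at least 2 times. H3K27ac coverage was more extensive in late than in early WT in 40.6% and less in 16.1% of the 2159 wider regions. In the 2615 narrower ones it was more extensive in 29.4% and less in 27.1%, and over all 20400 in 33.2% and 21.2%. The gains and losses of H3K27ac were thus near equal in number where the DNase region was narrower.

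The change was then tested in 10-kb bins of the genome, on the log2 of covered kb plus 0.5, with all 8 DNase libraries in one limma fit. Of 37586 bins 223 rose (0.593%) and 795 fell (2.12%) in late WT against early WT at an adjusted p under 0.05. The calls were at the limit of what the fit can resolve, with adjusted p of 0.0317 to 0.0493 among the 20 bins named below. No bin rose or fell with the pseudocount at 2 kb, with no filter on bins, with 2-kb bins, with only the 4 WT libraries fitted, or without any one of the 4 WT libraries (5094 bins had an unadjusted p under 0.05 in the fit as given). Without late KO replicate 1 no bin was called, without late KO replicate 2 a single one fell, and without early KO replicate 2 the falling bins numbered 1352.

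The called bins were nearly all empty at one stage. In 213 of the risen bins (95.5%) both early WT lists were empty, and their mean coverage was 1.51 kb in late WT and 0.0291 kb in early WT. Of those that fell 764 (96.1%) had no island in either late WT library, with means of 0.0209 kb in late WT and 1.53 kb in early WT. Among risen bins 181 (81.2%) and among fallen bins 641 (80.6%) had no island in any KO list, against 12.7% of all bins tested. The KO libraries share the estimate of spread with the WT libraries, and bins empty in all of them had no spread there, so the KO values of called bins are not an independent check.

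H3K27ac libraries were fitted apart and had no part in calling the DNase bins. Most called bins passed the filter on bins through the islands of one WT stage alone. The H3K27ac shares below therefore describe these bins and are no test of the DNase calls. In the whole H3K27ac fit 3733 of 39126 bins rose (9.54%) and 2648 fell (6.77%) in late WT against early WT. Of the 223 bins that rose in DNase 158 were testable for H3K27ac, and of these 74 (46.8%) rose and 6 (3.8%) fell (limma, adjusted p under 0.05). Of the 795 that fell 472 were testable, and 17 (3.6%) rose and 100 (21.2%) fell. Among all 30122 DNase bins with an H3K27ac value 9.17% rose and 4.9% fell. Median H3K27ac change was 1.37 on the log2 scale for bins that rose in DNase, -0.27 for bins that fell and 0.04 for all bins. Across the 30122 bins the changes of both assays correlated at 0.273 by Pearson's and 0.218 by Spearman's coefficient, a description only, since bins share libraries.

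**Figure D4:**
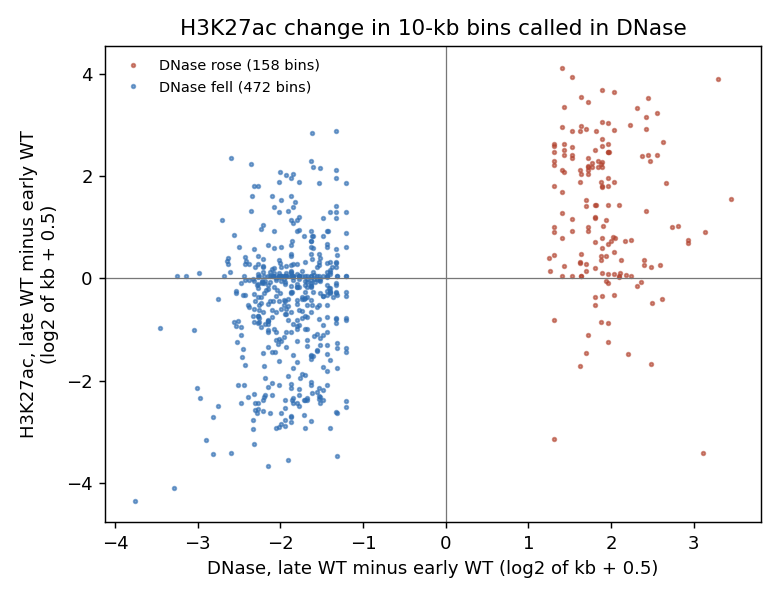
Change in H3K27ac (y axis) against change in DNase (x axis), both late WT minus early WT on the log2(kb + 0.5) scale, for 10-kb bins called in DNase that were also testable for H3K27ac (158 rose, red, and 472 fell, blue). Points on the right lie mostly above 0 (median 1.37), and those on the left scatter around 0 with a tail downwards (median -0.27).

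Falls were most pronounced on chromosome 11, where a pair of adjacent bins closed and lost H3K27ac. At 52080001 to 52090000 DNase islands covered 0 and 0 kb in late WT and 6.2 and 6.8 kb in early WT (limma adjusted p = 0.0317). H3K27ac covered 0 and 0 kb in late WT and 10 and 10 kb in early WT (limma adjusted p = 0.000282). The adjoining bin at 52090001 to 52100000 held 0 and 0 kb in late WT and 3.4 and 6.0 kb in early WT, with H3K27ac at 0 and 0 kb in late WT and 8.4 and 8.4 kb in early WT. Over the 60 kb from 52080001 to 52140000, which held 3 called bins, DNase coverage was 3.3 ± 1.0 kb in late WT and 15.7 ± 4.1 kb in early WT (SD, n = 2 per group). KO cells had 0.6 and 0.4 kb there in late KO and 13.6 and 17.2 kb in early KO. Coverage was thus lower at the late stage in both genotypes, and no group overlapped its earlier stage. The KO values are from whole lists, which were shorter in late KO, and the part of list length was not tested.

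Other falls came with a partial or no loss of acetylation. On chromosome 11 at 98970001 to 98980000 the DNase values were 0 and 0 kb in late WT and 4.2 and 3.2 kb in early WT, and those of H3K27ac 1.4 and 1.4 kb in late WT and 8.6 and 7.8 kb in early WT. On chromosome 10 at 116350001 to 116360000 DNase covered 0 and 0 kb in late WT and 4.6 and 5.8 kb in early WT, with H3K27ac at 3.8 and 4.4 kb in late WT and 8.2 and 9.4 kb in early WT. The bins on chromosome 1 at 167740001 to 167750000 and chromosome 13 at 30910001 to 30920000 stayed filled with H3K27ac, at 10 kb in all 4 WT libraries. Their DNase coverage was 0 and 0 kb in late WT against 2.8 and 6.8 kb in early WT on chromosome 1, and against 3.6 and 4.6 kb in early WT on chromosome 13. H3K27ac fell in 6 of the 10 named bins that fell in DNase (limma, adjusted p under 0.05) and rose in none. Of these 10, the bin on chromosome 10 at 126970001 held no H3K27ac island and could not be tested.

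The bins that rose most fell into those with and those without H3K27ac. On chromosome 10 at 57440001 to 57450000 DNase coverage was 3.6 and 5.0 kb in late WT and 0 and 0 kb in early WT (limma adjusted p = 0.0317). H3K27ac there was 6.6 and 7.0 kb in late WT and 0 and 0 kb in early WT (limma adjusted p = 0.000298). The bin on chromosome 9 at 123740001 to 123750000, around the region described above, had 5.4 and 4.2 kb of DNase islands in late WT and 0 and 0 kb in early WT (limma adjusted p = 0.0493). Its H3K27ac covered 10 and 10 kb in late WT and 3.4 and 3.0 kb in early WT (limma adjusted p = 0.00037). The bin on chromosome 17 at 13730001 to 13740000 went against this, with DNase at 3.2 and 4.2 kb in late WT and 0 and 0 kb in early WT and H3K27ac at 0 and 0 kb in late WT and 5.2 and 4.8 kb in early WT (limma adjusted p = 0.000311). H3K27ac rose in 2 of the 10 named bins that rose in DNase and fell in 1 (limma, adjusted p under 0.05). The bins on chromosomes 2 (9770001), 15 (66600001) and 6 (134700001) had H3K27ac at both stages without a call (limma adjusted p = 0.196, 0.257 and 0.186). Named bins with no H3K27ac island could not be tested.

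A group of risen bins held no H3K27ac island in any of the 8 acetylation libraries. The bin on chromosome 4 at 146790001 to 146800000, the largest rise, covered 4.6 and 5.2 kb in late WT and 0 and 0 kb in early WT. It was already open in early KO, at 5.8 and 3.0 kb, beside 6.0 and 5.4 kb in late KO. The bin 100 kb further on, at 146890001 to 146900000, covered 5.4 and 3.6 kb in late WT and 0 and 0 kb in early WT, with 2.4 and 6.2 kb in late KO and 1.4 and 3.0 kb in early KO. On chromosome 1 the bin at 85240001 to 85250000 covered 3.8 and 4.6 kb in late WT and 0 and 0 kb in early WT, with 7.0 and 4.8 kb in late KO and 1.6 and 8.0 kb in early KO. In these 3 bins the early WT libraries were the ones at 0, and all 4 KO libraries were open. A further named bin without H3K27ac, on chromosome 16 at 3250001 to 3260000, had 3.4 and 3.2 kb in late WT and 0 and 0 kb in early WT, and no island in KO.

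Called bins seldom lay together. The 223 bins that rose formed 214 stretches with at most 50 kb between neighbours, 9 of them with 2 bins and none with more. The 795 that fell formed 739 stretches, of which 49 held more than 1 bin. The 5 with most fallen bins, 3 each, included the stretch on chromosome 11 and one on chromosome 1 at 173880001 to 173980000, with 2.9 ± 1.6 kb of DNase islands in late WT and 10.7 ± 2.4 kb in early WT (SD, n = 2 per group). H3K27ac over these 100 kb was 3.3 ± 2.1 kb in late WT and 13.9 ± 2.7 kb in early WT, and KO cells had 0 and 0 kb of DNase islands in late KO and 4.8 and 7.0 kb in early KO. On chromosome 10 at 75400001 to 75480000 no DNase island was left in late WT, against 2.9 ± 0.7 kb in early WT, and H3K27ac was 2.5 ± 2.4 kb in late WT and 8.9 ± 0.7 kb in early WT (SD, n = 2 per group).

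Regions at equal length formed a few denser clusters, by a rule chosen after the data were seen (neighbours of one kind at most 50 kb apart). The largest late-alone cluster held 8 regions on chromosome 6 at 50202601 to 50350800, with no early-alone region among them. DNase islands of whole lists covered 12.2 and 15.8 kb of it in late WT and 5.8 and 8.4 kb in early WT, and 8.4 and 7.2 kb in late KO and 2.8 and 10.2 kb in early KO. H3K27ac covered 21.2 and 23.8 kb in late WT and 8.0 and 9.6 kb in early WT. On chromosome 16 at 5364801 to 5426800, a cluster of 5 regions, DNase coverage was 12 and 16 kb in late WT and 4.4 and 9.0 kb in early WT, and H3K27ac was 39.6 and 42.0 kb in late WT and 14.8 and 12.8 kb in early WT. The largest early-alone cluster held 8 regions on chromosome 1 at 163236601 to 163367200. Its DNase coverage was 0.8 and 6.0 kb in late WT and 13.6 and 20.6 kb in early WT, and 2.4 and 0.6 kb in late KO and 8.8 and 16.4 kb in early KO. H3K27ac there was 2.2 and 1.6 kb in late WT and 12.6 and 8.8 kb in early WT. In these 3 clusters the late and early WT libraries did not overlap, in DNase or in H3K27ac, but the clusters were picked for their DNase values. The next late-alone cluster, with 5 regions on chromosome 7 at 31874801 to 31963200, did overlap, at 15.8 and 15.6 kb of DNase islands in late WT and 11.8 and 18.6 kb in early WT, and its H3K27ac was 19.2 and 20.4 kb in late WT and 20.4 and 24.2 kb in early WT.

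Whether the change with time differed between KO and WT was tested as an interaction in the same fit. In KO cells alone 74 bins rose (0.197%) and 846 fell (2.25%) in late against early KO (limma, adjusted p under 0.05). These counts were 610 and 658 with all 8 lists of equal length, 67 and 238 with quantile normalization, 11 and 26 with a pseudocount of 2 kb and 11 and 121 with a replicate block, and both were 0 without any one of the 4 early libraries. For the interaction no bin passed (limma, adjusted p under 0.05, 0%), and 5022 had an unadjusted p under 0.05. Among the named bins the largest interaction was on chromosome 1 at 167740001 to 167750000, where DNase coverage was 2.2 and 3.0 kb in late KO and 0.8 and 2.6 kb in early KO, against 0 and 0 kb in late WT and 2.8 and 6.8 kb in early WT (limma interaction adjusted p = 0.109). A count of 0 in so small a design does not show that both genotypes changed alike. With all 8 lists cut to the 17397 islands of the shortest, 691 bins passed the interaction. In bulk libraries a higher share of cells with an open site cannot be told apart from more open chromatin per cell.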

How the data were processed

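Per the submitters' processing notes, the authors used CASAVA 2.18, Bowtie2 and SICER 1.1 with build mm9. The caller joins enriched windows into islands, and the deposited lists give position and an island score, which the authors' caller made and which was used here only to rank islands within a list. Island starts fell on a 200-bp grid in every list. Control libraries and read numbers are not given in the sources used here.

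Island coverage of each 10-kb bin was put on the log2(kb + 0.5) scale, dropping bins in which fewer than 2 of an assay's 8 libraries had an island. Each library was shifted to a common median, taken over bins with an island in all 8, and fitted by group with limma 3.58.1 (eBayes with a trend, Benjamini-Hochberg over all bins). Bins said to rise or fall had an adjusted p under 0.05. Named were the 10 largest rises and falls, the 10 regions per direction with the highest mean score percentile at equal list length, and the 5 stretches per direction with most called bins. The text gives part of each. Members, rules and tests were chosen with earlier results of these data known. Interval and fit scripts were tested on simulated data. Deviations from group means correlated at -0.00967 to 0.0817 between libraries of the same replicate number. With 2 libraries per group this cannot settle whether replicate numbers pair the samples, and the fit given had no replicate block. Tools were Python 3.11.15, numpy 2.4.6, pandas 2.3.3, scipy 1.17.1, matplotlib 3.10.9 and R 4.3.3. The genes given were on a different build, so planned gene loci and motifs were not analysed here.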

Additional observations from a re-analysis of the deposited data

How the results depend on the processing

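The H3K27ac differences kept their direction under every alternative run, whereas counts moved with list length. The KO changes at early-alone regions kept theirs too, but most of those runs read whole KO lists. In whole KO lists the share over all 44502 regions was itself 37.5 ± 1.8% in late KO and 60.8 ± 16.1% in early KO (SD, n = 2 per group). The direction in those runs therefore cannot be told apart from list length. The alternatives for regions were lists of equal length, lists of equal covered length, the upper 50% of each list, presence only where islands fill at least 50% of the region, merging across gaps of up to 1 kb, and leaving out each WT library. In that order the count in late WT alone (978) was 1969, 1497, 478, 1468 and 880, and that in early WT alone (4042) was 1960, 667, 2069, 4319 and 3631. With a library left out its stage needs an island in 1 list only, and the counts were 1179 to 3735 and 4378 to 9057. Late WT minus early WT H3K27ac at late-alone regions (36.3 points) was 31.1 with equal lists and 26.2 with at least 50% covered, and 23.0 to 34.5 without a library. At early-alone regions (-7.56 points) it was -16.9 with equal covered length and -2.13 with the upper 50%, and -6.75 to -2.05 without a library. Late KO minus early KO DNase at late-alone regions (1.07 points with whole KO lists) was -9.29, -5.91 and -8.75 with equal lists, equal covered length and at least 50% covered, and -6.43 to 0.382 without a library, but 17.4 with KO lists of equal length and 19.3 with WT lists equal as well, alternatives added after the data were seen. At early-alone regions (-31.4 points) it was -51.3, -59.9 and -62.9 with equal lists, equal covered length and the upper 50%, -37.5 to -24.8 without a library, and -3.85 and -10.3 with KO lists of equal length. 

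Bins that rose (223) and fell (795) numbered 399 and 1473 without centring, 506 and 659 with all 8 lists equal, 0 and 1 with quantile normalization, and 1 and 0 in bins of 50 kb. Both were 0 with a pseudocount of 2 kb, no filter, bins of 2 kb, or the 4 WT libraries fitted alone (whole, of equal length or, added later, of equal covered length). With a replicate block 0 rose and 0 fell. Without a library 0 to 272 rose and 0 to 1352 fell. The interaction (0 bins) called 1939 without centring, 691 with all 8 lists equal and 1136 with the upper 50%, and 0 with any one library left out. Refits of the 20 named bins passed in 66 cases, did not in 251 and changed sign in 5, the bins on chromosomes 4 (146890001), 10 (57440001) and 1 (85240001) at -0.0055 with all 8 lists equal and those on chromosomes 4 (146790001) and 1 (85240001) at -0.010 with the upper 50%. After these cuts the WT lists held no island there (0 kb), so the value is the centring alone. The cause of the other changes was not tested. Gene loci and motifs were not run. Without counts, a site missing from a list may lie below its threshold.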
